A study of Arabidopsis thaliana with 2 samples.

Results

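GSA1, CHLM and PORB encode enzymes of chlorophyll biosynthesis in Arabidopsis thaliana. They were chosen with earlier results of these data known. The array annotation gives each of them 1 probe set of its own, and they are 3 of the 13356 genes that could be named in this way. The probe sets are 247392_at for GSA1 (AT5G63570), 254105_at for CHLM (AT4G25080) and 253871_at for PORB (AT4G27440). The study set the BOUNTIFUL line, a gain-of-function mutant with an I/dSpm activation tag inserted in BOU, against Ws-0, the wild-type accession that is also its genetic background. An activation tag is an insert that carries an enhancer and can raise the transcription of genes near it. Total RNA came from the 4 youngest rosette leaves of plants at developmental stage 6.50, grown in a glasshouse on compost at 23 °C under 16 h of light a day. One Affymetrix ATH1 array was hybridised for each genotype, so every difference below is between a pair of RNA samples, with no replicate check and no test. The sources used here do not give the number of plants behind each RNA sample.

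Chlorophyll is made in the plastid from glutamate. The first steps lead to 5-aminolevulinic acid (ALA) and then to protoporphyrin IX, and they are shared with heme. At protoporphyrin IX the insertion of magnesium commits the molecule to chlorophyll, and later steps methylate it, close a further ring, reduce protochlorophyllide in the light and attach a phytol tail. Leaves that are still expanding build thylakoid membranes and need this pathway together with the proteins that bind the pigment. In bulk leaf RNA, a larger share of green cells and more transcript per cell cannot be told apart.

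Of the 3 genes, PORB stood higher in BOUNTIFUL by about 3-fold, while GSA1 and CHLM differed little. GSA1, glutamate-1-semialdehyde aminomutase, makes ALA and acts earliest of the group. The BOUNTIFUL array read 389 units for it and the Ws-0 array 341 units. CHLM, which methylates Mg-protoporphyrin IX just after magnesium has been inserted, gave 950.0 units in BOUNTIFUL against 731 units in the wild type. PORB, a protochlorophyllide oxidoreductase that needs light for its reaction, gave 1424 units in BOUNTIFUL against 453 units in the wild type. All 3 genes were brighter in BOUNTIFUL. All 6 signals were well above background, since the brightest control probe set for Bacillus subtilis genes, which have no target in leaf RNA, reached only 21.9 units in BOUNTIFUL and 16.7 units in the wild type. Signals of different probe sets are not set against each other here, because each probe set responds to its own target.

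On the scale of log2(signal + 7.77 units), the log2 ratio of BOUNTIFUL to Ws-0 was 0.19 for GSA1, a 1.14-fold difference. For CHLM it was 0.37, or 1.296-fold. For PORB it was 1.64, or 3.11-fold. The ratio was thus lowest at the earliest step and highest at the latest. The PORB ratio exceeded that of CHLM by 1.26 and that of GSA1 by 1.45, and CHLM exceeded GSA1 by 0.19. A factor common to a whole array cancels in such differences, apart from the small effect of the pseudocount. The only repeated measurement within these arrays is that of genes read by a pair of probe sets. In 33 such genes both probe sets passed the filter, and their log2 ratios lay a median of 0.21 apart, with a 95th percentile of 0.78. In 1 of the 33 pairs the probe sets were more than 1 apart, at 1.26, as far as PORB was from CHLM, and the others were closer than PORB was to CHLM or GSA1. The distance between CHLM and GSA1 was exceeded by 17 of the 33 pairs. These pairs share their RNA and their hybridisation, so they carry no spread between plants.

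**Figure D1:**
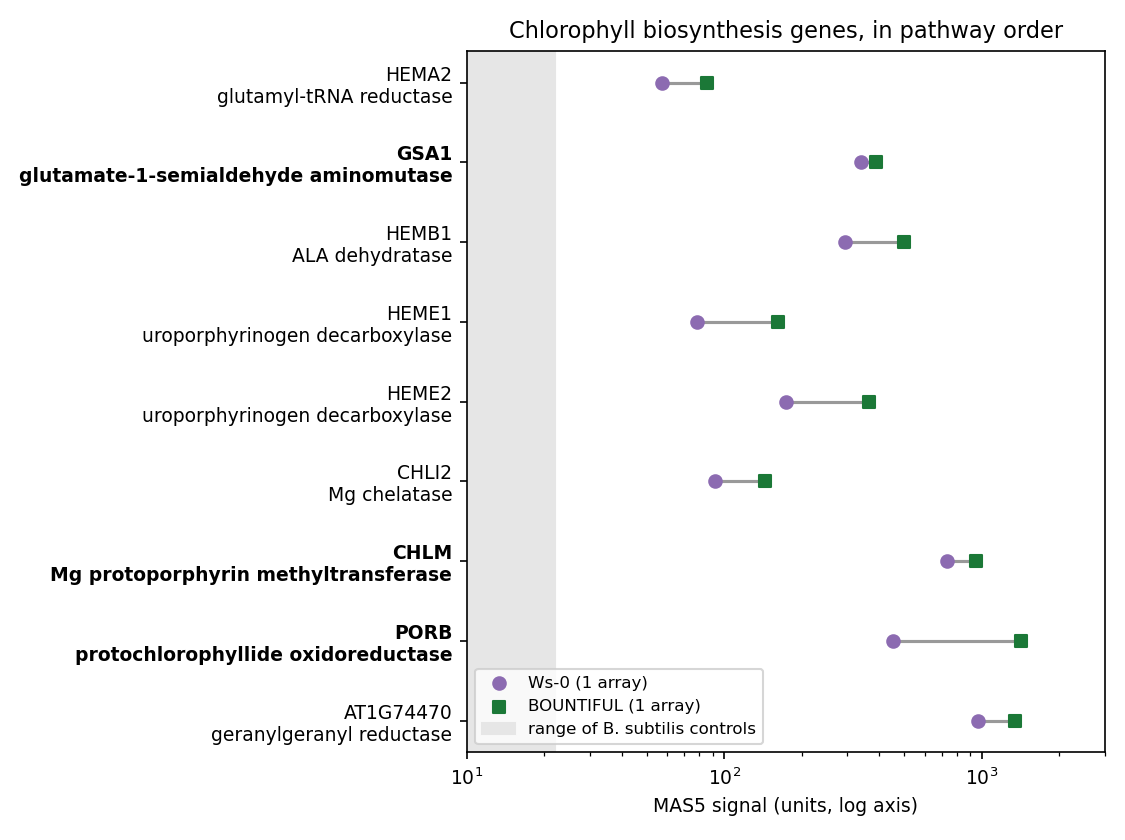
MAS5 signal (units, log axis) of the 9 measured chlorophyll biosynthesis genes on the BOUNTIFUL array (squares) and the Ws-0 array (circles), in pathway order from top to bottom, with GSA1, CHLM and PORB in bold and the range of the Bacillus subtilis controls shaded. The BOUNTIFUL square lies to the right of the Ws-0 circle for all 9 genes, and the gap is widest for PORB, at 1424 against 453 units.

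PORB was the only one of the 3 genes with at least a 2-fold difference. Across the 11373 Arabidopsis probe sets whose mean signal reached the median of 39.9 units, 527, or 4.63%, were at least 2-fold higher in BOUNTIFUL and 453, or 3.98%, at least 2-fold lower. A higher log2 ratio than that of PORB was found for 175 of these probe sets, which puts PORB at the 98.5th percentile. CHLM lay at the 80.8th percentile and GSA1 at the 69.8th, both inside the bulk of the distribution. Among the 1271 probe sets with a mean signal between those of GSA1 and PORB, 365 to 939 units, 8.26% were at least 2-fold higher and 50.8% were above 0, so high ratios were more frequent at this brightness than over all probe sets. The median log2 ratio was 0.37 for the 3 genes, -0.06 for all passing probe sets and 0.02 for the probe sets of that brightness.

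**Figure D2:**
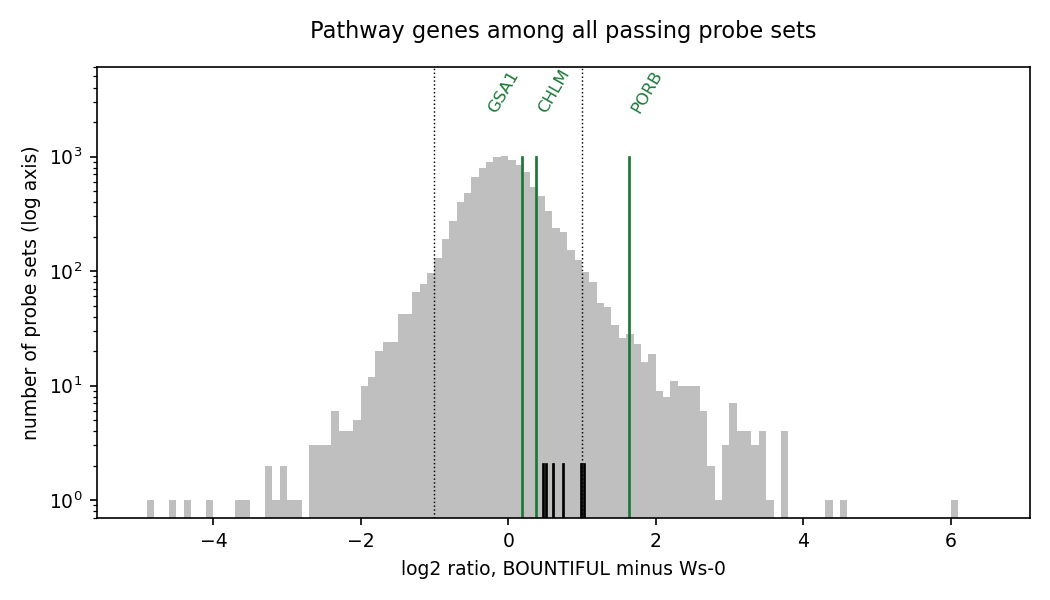
Number of probe sets (log axis) by log2 ratio of BOUNTIFUL to Ws-0 for the 11373 passing probe sets, in grey, with GSA1, CHLM and PORB as labelled green lines, the 6 other measured pathway genes as short black lines and 2-fold differences dotted. GSA1 (0.19) and CHLM (0.37) fall in the bulk of the distribution and PORB (1.64) in its upper tail.

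The wider pathway was read through a list of 30 genes for the steps from glutamate to chlorophyll. The annotation names a probe set for 12 of them, and the other 18 are not named here, among them GSA2, PORA and PORC, the close relatives of GSA1 and PORB. Of the 12 named genes 9 passed the filter, and each of these was above the filter level on both arrays. The log2 ratio was above 0 for 9 of the 9, where 44.9% of all passing probe sets were above 0. It was at least 1 for 2 of the 9, PORB and HEME2, beside 4.63% of all passing probe sets. HEME1, at 0.98, lay just under that line and passed it with median centring, quantile normalisation, lowess or no pseudocount, and under both spike scalings. The list had a median log2 ratio of 0.61 and a range from 0.19 for GSA1 to 1.64 for PORB. Without GSA1, CHLM and PORB, the median of the 6 remaining genes was 0.68, with values from 0.48 to 1.03.

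Among the measured genes of the steps shared with heme, the log2 ratios were highest at uroporphyrinogen decarboxylase. HEMA2, a glutamyl-tRNA reductase, which catalyses the step just before GSA1, gave 85.5 units in BOUNTIFUL against 57.4 units in the wild type, with a log2 ratio of 0.52. HEMB1, the ALA dehydratase that uses the product of GSA1, gave 499.8 units against 294 units, with a log2 ratio of 0.75. Both genes had higher ratios than GSA1 itself. Each was the only named gene of its step that passed the filter. HEMA3 and hemb2, of the same steps, were below it. The ratios do not stand for any gene of these steps without a named probe set. HEMA1 was not among the named genes, so the HEMA2 ratio does not give the level of the whole glutamyl-tRNA reductase step. HEMA2 also had the lowest mean signal of the measured pathway genes, 71.4 units. The distance of HEMA2 from GSA1, 0.33, was exceeded by 10 of the 33 probe set pairs of single genes, and that of HEMB1, 0.56, by 3.

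HEME1 and HEME2 both encode uroporphyrinogen decarboxylase, which trims the side chains of the ring before it is oxidised to protoporphyrin. The signal of HEME1 was 162 units on the BOUNTIFUL array against 78.2 units on the other, with a log2 ratio of 0.98. That of HEME2 was 363 units against 174 units, with a log2 ratio of 1.03. The pair thus differed by 0.05 in log2 ratio, and 25 of the 33 probe set pairs lay further apart. HEME2 exceeded GSA1 by 0.84, a distance that 2 of the 33 pairs surpassed. The 5 measured genes of the shared steps had a median log2 ratio of 0.75.

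After the branch to chlorophyll, 4 genes were measured, with a median log2 ratio of 0.54. CHLI2, for a subunit of the magnesium chelatase, the enzyme that supplies the substrate of CHLM, gave 144 units in BOUNTIFUL against 91.9 units in the wild type, with a log2 ratio of 0.61. AT1G74470, which the gene table lists as geranylgeranyl reductase, the enzyme that makes the phytol tail, gave 1349 units against 968 units, with a log2 ratio of 0.48. CHLM lay below these by 0.23 and 0.10, distances that 15 and 23 of the 33 pairs surpassed. The pairs carry no spread between plants, so they cannot decide whether the 3 ratios differ. PORB exceeded HEME2, the gene with the next highest ratio in the list, by 0.61, a distance that 3 of the 33 probe set pairs surpassed. Over the 9 genes the ratios did not follow the order of the steps, since the peak at HEME1 and HEME2 was followed by lower values at CHLI2 and CHLM before PORB.

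**Figure D3:**
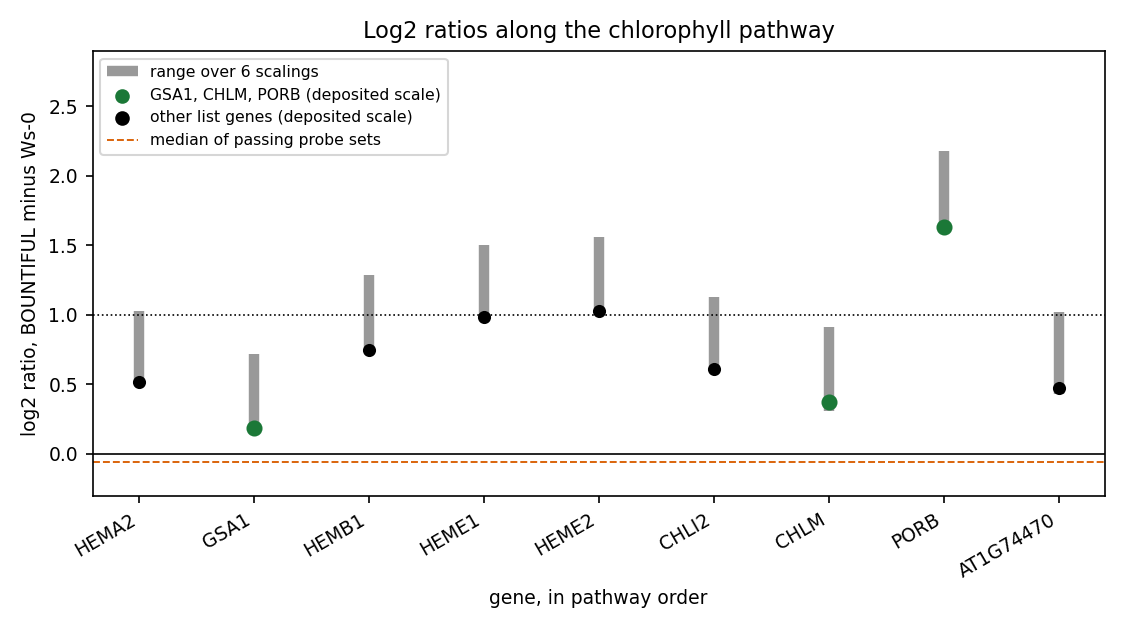
Log2 ratio of BOUNTIFUL to Ws-0 for the 9 measured pathway genes in pathway order, on the deposited scale (points, green for GSA1, CHLM and PORB), with grey bars for the range over 6 scalings of the arrays, a dotted line at 2-fold and a dashed line at the median of all passing probe sets. All 9 points lie above the median of -0.06, the values at HEME1 and HEME2 stand near 1, and PORB is highest at 1.64.

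The 3 pathway genes below the filter gave no usable ratio. HEMA3, a further glutamyl-tRNA reductase gene, read 2.09 units in BOUNTIFUL and 3.50 units in the wild type. The gene listed as hemf2, for a coproporphyrinogen oxidase, read 2.29 and 3.20 units. These values are within the reach of the Bacillus subtilis controls on both arrays. The gene listed as hemb2, for a further ALA dehydratase, read 29.5 units in BOUNTIFUL and 16.3 units in the wild type, where it too could not be told from the controls.

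How the arrays are scaled against each other sets the level of all these ratios. The 9 newer probe sets for hybridisation spikes, transcripts put into the hybridisation mix of each array, had a mean log2 ratio of -0.35, and the 9 older ones a mean of -0.55. With the newer spikes set equal, the median of all passing probe sets became 0.27, and with the older ones 0.45. Relative to that median, PORB was at 1.69 on the deposited scale, at 1.72 with the newer spikes and at 1.73 with the older ones. CHLM was at 0.43, 0.45 and 0.46 on the same scales, and GSA1 at 0.24, 0.26 and 0.27. Since these scalings multiply a whole array by 1 factor, a gene's distance from the median is nearly fixed under them and is no check. Quantile normalisation and lowess can change it, and with these PORB was 1.62 and 1.62 above the median, CHLM 0.33 and 0.36 and GSA1 0.19 and 0.21, with all 9 pathway genes above it. Setting the newer spikes equal left 72.5% of all passing probe sets above 0, and the older ones 83.2%, so a ratio above 0 then says little about the pathway. The pathway genes at least 2-fold higher became 4 of 9 with the newer spikes, beside 9.83% of all passing probe sets, and 7 of 9 with the older, beside 14.6%.

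Genes of neighbouring pathways were few in the annotation. SIRB, a ferrochelatase of the siroheme branch, was the 1 measured gene of 9 in the heme, siroheme and bilin list. With 236 units in BOUNTIFUL and 228 units in the wild type, its log2 ratio was 0.05. In the list of 12 genes for chlorophyll breakdown and the conversion of chlorophyll b to a, 2 were measured. NOL, a chlorophyll b reductase, gave 167 units in BOUNTIFUL and 228 units in the wild type, with a log2 ratio of -0.43 that became 0.10 with the older spikes set equal. AT1G44000, which has no symbol in the gene table, had a log2 ratio of 0.06. None of these 3 genes reached a 2-fold difference.

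LYC, the lycopene beta-cyclase, was the 1 measured gene of 13 in carotenoid synthesis. With 397 units in BOUNTIFUL and 581 units in the wild type, its log2 ratio was -0.54, which shrank to -0.003 with the older spikes set equal. EIN3, an ethylene signalling factor that acts on greening in seedlings, was the 1 measured gene of 18 among regulators of greening. Its log2 ratio was -0.11 and turned positive under both spike scalings. The 2 genes that control ALA synthesis and the 8 genes of the pathway that supplies the phytol precursor had no named probe set. The pathway's known regulators therefore almost all lacked a probe set named by the annotation, and the transcripts of those were not examined.

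The chlorophyll-binding antenna list had 3 measured genes of 22, all for the minor antenna protein CP29. LHCB4.1 had a log2 ratio of 0.22, LHCB4.2 of 0.70 and LHCB4.3 of 0.63, which lie inside the range of the pathway genes and below PORB. The leaf mesophyll markers were bright on both arrays, which fits the labelled tissue, with 3 of 7 named. PSAE-1 and PSAN, subunits of photosystem I, had log2 ratios of 0.74 and 0.79. RCA, the activase of Rubisco, gave 3587 units in BOUNTIFUL and 4492 units in the wild type, with a log2 ratio of -0.32 that turned positive under both spike scalings. On the deposited scale a higher ratio was thus not common to all measured genes of photosynthesis.

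**Figure D4:**
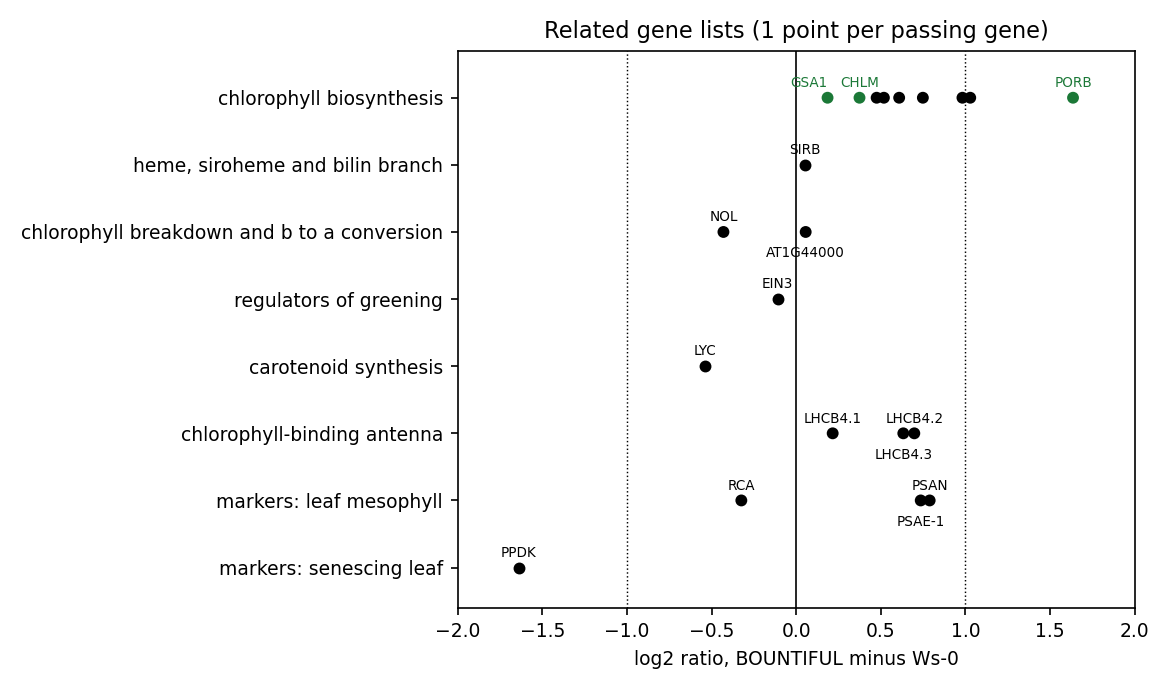
Log2 ratio of BOUNTIFUL to Ws-0 on the deposited scale for each passing gene (points) of the chlorophyll biosynthesis list and of related lists, with 2-fold differences dotted and GSA1, CHLM and PORB in green. The 9 chlorophyll biosynthesis genes and the 3 antenna genes lie above 0. LYC, NOL, RCA and EIN3 lie below 0. RCA and EIN3 were above 0 under both spike scalings and NOL with the older spikes set equal. PPDK, of the senescing leaf list, lies at -1.64.

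Among markers of senescing leaves, PPDK differed in the opposite direction. Of 6 such genes 3 were named, and their signals summed to 361 units in BOUNTIFUL and 1054 units in the wild type. PPDK, pyruvate orthophosphate dikinase, gave 312 units against 989 units, with a log2 ratio of -1.64. SAG101 had 31.4 and 32.1 units and WRKY53 17.8 and 33.1 units, both under the filter. The part of leaf age in the values of PORB and the other pathway genes was not tested.

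Markers of other organs were below the filter on average. The root markers PYK10 and EXPA18 still exceeded the brightest Bacillus subtilis control in BOUNTIFUL, as EXPA7 and EXPA18 did in the wild type. The 2 named genes of 7 for flower and pollen, UFO and ACT12, had at most 6.26 units on either array. Of 5 root genes 3 were named, and these summed to 100.2 units in BOUNTIFUL and 60.3 units in the wild type. The higher sum came from PYK10. EXPA7 was lower in BOUNTIFUL, at 17.5 against 21.7 units. EXPA18 differed little, with a log2 ratio of 0.05, and was above the brightest control on both arrays. PYK10, a beta-glucosidase of root and hypocotyl, gave 56.5 units in BOUNTIFUL, 2.58 times the brightest Bacillus subtilis control there, against 13.6 units in the wild type, within the reach of the controls. With the pseudocount its difference was 3.01-fold, and its part in the values of the pathway genes was not tested. None of the 5 seed genes had a named probe set.

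The genes with the most similar pair of signals were looked up among the 6024 other passing probe sets with 1 gene, by distance in the plane of the log2 values of both arrays. With only 2 arrays such likeness says little beyond brightness and ratio. For GSA1 the nearest were RPN12a (distance 0.015), AT3G61260 (0.036) and AT5G61660 (0.049). For CHLM they were OEP16-3 (0.068), AT5G14030 (0.10) and AT2G44310 (0.10). PORB had no such close match. Its nearest were AT4G16980 at a distance of 0.29 and a log2 ratio of 2.04, AT3G04550 at 0.30 and AT5G52650 at 0.34.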

How the data were processed

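The deposited values are intensities, that is linear MAS5 signals, per the submitters' processing notes, with no MAS5 version given. After trimming 2% of probe sets at either end, the mean was 100.0 for both arrays, which shows a scaling before deposit. Log2 ratios were BOUNTIFUL minus Ws-0 of log2(signal + 7.77), the pseudocount being the 20th percentile of all signals, which understates the difference of low genes. After removal of 64 controls, 22746 Arabidopsis probe sets were left, and those with a mean signal of at least the median of 39.9 units passed. A 2-fold difference means a log2 ratio of 1 or -1.

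Gene names come from the platform's annotation (2016) and symbols from the TAIR10.1 gene table. The annotation assigned 13513 probe sets to 1 gene and 503 to several, and 8730 were not in it. Coordinates are left out, as no build is given for the probe sets in the sources used here. The genes, lists and alternatives were chosen with earlier results of these data known. All listed genes with a probe set of their own are named, and for each of GSA1, CHLM and PORB the 3 nearest genes.

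With 1 array per genotype no test was possible, and the number of arrays limits the precision. The calculation, in Python 3.11.15 with pandas 2.3.3 and statsmodels 0.14.6, was tested on simulated data with planted differences. That run checked the code only and has no bearing on the spread between plants. There were 10 alternatives. They were median centring, quantile normalisation, lowess on mean signal (span 0.3), either set of spikes set equal, omission of the pseudocount, its increase to 24.8 units (40th percentile), omission of the filter, its increase to the 75th percentile, and removal of probe sets with a cross-hybridisation suffix.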

Additional observations from a re-analysis of the deposited data

How the results depend on the processing

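No paired analysis was possible with 1 array of each kind, nor was leaving out an array. A log2 ratio was taken as moved where it shifted by more than 0.39, the root mean square difference between probe sets of 1 gene. Over the 10 alternatives the log2 ratio of PORB ran from 1.60 to 2.18, that of CHLM from 0.31 to 0.92 and that of GSA1 from 0.17 to 0.72, so PORB was at least 2-fold higher and GSA1 and CHLM under 2-fold in all of them. The highest values came with the older spikes set equal, 1 factor for every BOUNTIFUL signal. They were PORB 2.18, CHLM and the median of the 3 genes 0.92, GSA1 0.72 and the pathway list median 1.13. PORB minus CHLM ran from 1.23 to 1.29, PORB minus GSA1 from 1.41 to 1.46 and CHLM minus GSA1 from 0.14 to 0.19. Only quantile normalisation, lowess and the pseudocount changes could move these differences much. The count of pathway genes at least 2-fold higher, 2 on the deposited scale, was 3 with median centring, quantile normalisation, lowess and no pseudocount, where HEME1 passed 2-fold. It was 4 after scaling on the newer spikes, 7 after scaling on the older, and 1 with the pseudocount at the 40th percentile, where HEME2 was at 0.96 and the share over all passing probe sets was 3.58%. The probe sets at least 2-fold higher and lower numbered 1118 and 203 with the newer spikes, 1663 and 131 with the older, 948 and 799 with no filter and 322 and 251 with the filter at the 75th percentile, where more or fewer probe sets enter. The higher ones, 53.8% of those on the deposited scale, made up 84.6% and 92.7% under these spike scalings, and 59.9% with median centring. Reversed values were those of EIN3, 0.23 and 0.42, and RCA, 0.028 and 0.22, after scaling on the newer and the older spikes, and of NOL, 0.10 after the latter. HEMA2 did not pass the filter at the 75th percentile and has no value there. Pathway genes above 0, 9 of 9 on the deposited scale, were 10 of 12 with no filter. HEMA3 and hemf2 were then below 0. The count was 8 of 8 with the filter at the 75th percentile and 9 of 9 in the other alternatives. The alternatives for the pathway list, for differences between genes and for genes other than GSA1, CHLM and PORB were added after the data were seen. Signals up to 21.9 units in BOUNTIFUL cannot be told from background.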
